A study of Rattus norvegicus with 4 samples.

Results

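The genes described here make cholesterol and fatty acids in the cell: the enzymes that lead from acetyl-CoA to cholesterol, those that build, desaturate, lengthen and activate fatty acids, and the regulators that control both. They were taken from a list of 35 gene names, and a gene was a member when a probe of the array carried its name in the scanner files. By that rule 34 of the 35655 named or numbered genes on the array were members, with 55 probes of 60 bases. Scd was not a name in the files, although RefSeq now gives that symbol to the gene the files call Scd1, and the gene the files call Sc4mol is now Msmo1. Of the 34 members, 21 belonged to the sterol branch and 13 to the fatty acid branch.

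The samples were olfactory ensheathing cells (OECs), the glia that wrap the axons of the olfactory nerve, grown from male Fischer rats. A cell sorter divided each culture by p75, the neurotrophin receptor encoded by Ngfr, into fractions named p75High and p75Low OECs. Their purity is given with the samples as 98% and was not measured here. Myeloid markers, described below, were brighter in p75Low, so a ratio need not compare OECs alone. There were 4 paired biological replicates, and in each one p75High cDNA (Cy5) and p75Low cDNA (Cy3) shared 1 two-colour Agilent array. No dye swap was made, all RNA went through a global PCR amplification, and no source used here says whether the 4 replicates came from separate animals, so the tests measure the spread between these 4 pairs, which may be technical in part. Every ratio below is the log2 of p75High over p75Low, so a positive value means a brighter p75High signal and 1 unit is a doubling. In these sorted bulk samples, fewer cells of a type and less RNA per cell cannot be told apart.

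Cholesterol is made in a long chain of steps in the cytosol and endoplasmic reticulum, and squalene is the point at which carbon is committed to sterols. Fatty acid synthesis starts from the same acetyl-CoA, which ATP citrate lyase makes from citrate. Both chains are switched on by the SREBP transcription factors, which the protein SCAP carries from the endoplasmic reticulum to the Golgi for cleavage when sterols are low, and which the INSIG proteins hold back when sterols are high. Glia that wrap axons use both products for their membranes.

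SREBPs bind sterol regulatory elements, often beside a CCAAT box bound by NF-Y, and the promoters of the list are shown for that reason. RefSeq promoter windows of the GRCr8 assembly, from 250 bases before to 50 bases after the start, could be matched for 28 of the 34 members. The element TCACNCCAC, searched on both strands, was in 0 of the 28 windows and in 1.25% of the windows of 27457 genes. Its shorter core CACNCCAC, which lies within the longer motif, was in 6 of 28 (21.4%, against 6.25% of all genes). CCAAT was in 21 of 28 (75%, against 39.6%) and the GC box GGGCGG also in 21 of 28 (75%, against 36%). Among the 19005 protein-coding genes alone, the shares were 39.8% for CCAAT and 44.1% for the GC box. The E-box CACGTG was in 4 of 28 (14.3%, against 7.08%). These are matches of letters and were not tested as binding sites. The windows printed below belong to the 4 members with a tested probe whose window held both the element core and a CCAAT box, and capitals mark the core (CACNCCAC) and the CCAAT box on either strand. They lie at chr4:8057720-8058019 on the minus strand for Insig1, chr1:216252442-216252741 on the plus strand for Fads1, chr8:87670914-87671213 on the plus strand for Elovl5, and chrX:16971212-16971511 on the plus strand for Ebp.
Insig1: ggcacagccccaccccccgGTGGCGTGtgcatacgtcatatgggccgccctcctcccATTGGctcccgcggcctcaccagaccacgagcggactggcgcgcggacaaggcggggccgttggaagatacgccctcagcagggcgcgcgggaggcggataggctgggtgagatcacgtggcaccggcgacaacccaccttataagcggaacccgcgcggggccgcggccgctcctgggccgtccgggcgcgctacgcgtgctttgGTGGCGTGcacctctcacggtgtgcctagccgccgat
Fads1: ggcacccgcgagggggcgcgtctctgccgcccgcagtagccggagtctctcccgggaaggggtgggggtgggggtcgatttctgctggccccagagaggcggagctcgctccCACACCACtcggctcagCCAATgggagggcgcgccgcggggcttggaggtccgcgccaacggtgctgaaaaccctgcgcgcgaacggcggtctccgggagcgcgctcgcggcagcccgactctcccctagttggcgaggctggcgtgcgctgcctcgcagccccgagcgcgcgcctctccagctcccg
Elovl5: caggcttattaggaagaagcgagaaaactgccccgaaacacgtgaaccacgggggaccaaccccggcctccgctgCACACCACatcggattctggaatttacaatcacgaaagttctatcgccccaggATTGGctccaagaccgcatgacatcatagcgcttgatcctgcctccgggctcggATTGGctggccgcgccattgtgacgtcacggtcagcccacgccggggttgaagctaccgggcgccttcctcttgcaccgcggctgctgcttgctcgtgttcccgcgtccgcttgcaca
Ebp: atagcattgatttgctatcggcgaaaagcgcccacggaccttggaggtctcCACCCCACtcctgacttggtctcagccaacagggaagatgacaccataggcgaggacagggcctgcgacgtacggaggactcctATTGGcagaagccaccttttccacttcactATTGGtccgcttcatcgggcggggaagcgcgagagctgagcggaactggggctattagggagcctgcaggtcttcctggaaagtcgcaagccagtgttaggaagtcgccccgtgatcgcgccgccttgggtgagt
Insig1 carries the core at both ends of its window, and in Fads1 the core and the CCAAT box lie close together. The ratios of these genes did not share a direction: the means given below were positive for Fads1 and Elovl5 and negative for Insig1 and Ebp.

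A probe was tested if 1 channel showed it well above background on 3 or more of the 4 arrays, and each gene was read from its brightest such probe. That left 45 of the 55 probes and 30 members, 19 of the sterol and 11 of the fatty acid branch. The 4 members not tested were Insig2, whose 2 probes were not well above background on any array, Scd1, Hsd17b7 and Acsl3. Over all probes, 22495 to 28086 were well above background in p75High and 23071 to 26191 in p75Low, with replicate 4 lowest in both. As a check of the sort, Ngfr had a ratio of 5.80 ± 0.53 (SD, n = 4; limma adjusted p = 0.0262).

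Across the list, the ratios of p75High to p75Low varied widely from pair to pair. The median size of a member's mean ratio, sign left aside, was 1.17, and the median SD of its 4 ratios was 1.85. Members on the same pathway took both signs. In limma, 0 of the 30 tested members passed an adjusted p of 0.05 over all 22193 genes, where 166 genes (0.748%; 0.311% higher and 0.437% lower) did. At an unadjusted p under 0.05, 8 members (26.7%) stood against 12.7% of all genes. Of these, 7 had a higher p75High signal (Hmgcs1, Lss, Dhcr7, Acly, Scd2, Fads1 and Acsl1), against 5.82% of all genes, and 1 (Pmvk) a lower one, against 6.91%. Of the 30 tested members, 5 (Fdft1, Sqle, Elovl5, Fads1 and Acsl1) had entered through p75High alone and 1 (Elovl6) through p75Low alone, so that a bright channel by itself could bring a gene into these counts. Among the 24 members well above background on at least 3 arrays in both channels, 5 were higher and 1 lower at an unadjusted p under 0.05 (20.8% and 4.17%, against 5.71% and 7.25% of 17657 such genes). The count of 8 was 2 without replicate 3 and 5 without replicate 1, and the count of genes past the adjusted threshold was 0 without any one of the 4 replicates. No test of the list as a whole was made, since its members were chosen with earlier results of these data known.

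**Figure D1:**
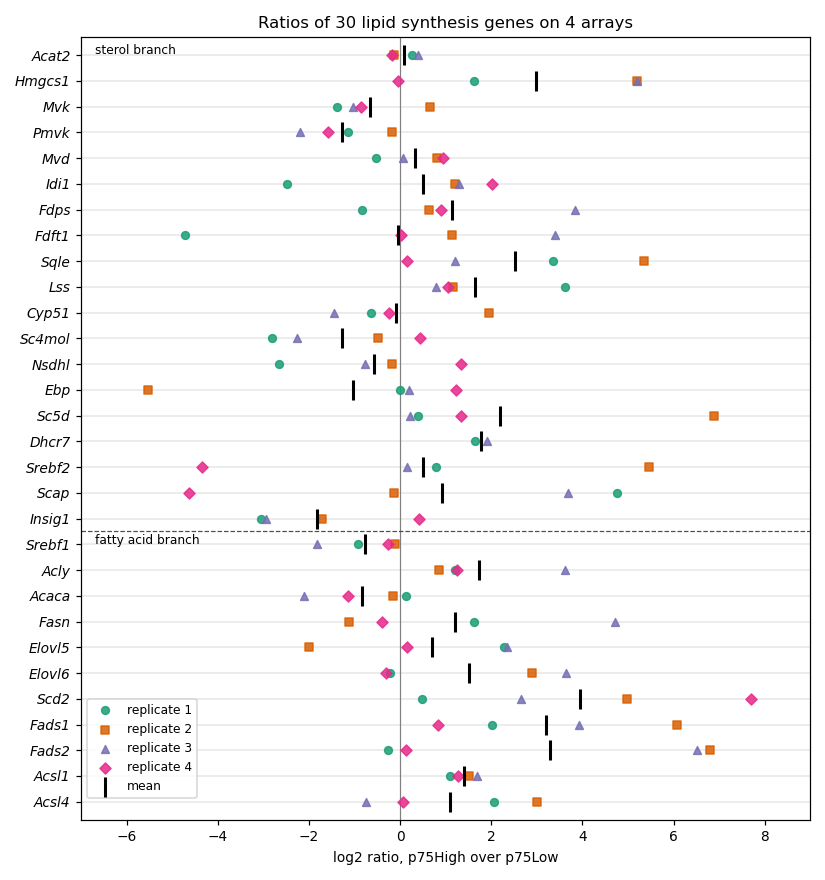
Log2 ratio of p75High over p75Low (x axis) of the 30 tested members (y axis, sterol branch and fatty acid branch), with 1 point per array and a bar for the mean. Acsl1 has 4 points between 1.10 and 1.69, while Scap spans -4.64 to 4.75.

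The branches differed in where their middle lay. The median of the mean ratios was 0.32 over the 19 sterol members and 1.39 over the 11 fatty acid members, beside -0.03 over all genes. The value 1.39 was the ratio of Acsl1, whose probes differed in direction. Of the fatty acid members, Elovl5, Fads1 and Acsl1 had entered through p75High alone and Elovl6 through p75Low alone. Among the sterol members, Fdft1 and Sqle had entered through p75High alone. The filter by itself could thus move these medians. With the median over a gene's probes in place of the brightest one, the fatty acid median was 0.77. With no filter on dim probes, the sterol median was 0.08 and the fatty acid median 1.21. On the single arrays, the sterol median was -0.54, 0.73, 0.21 and 0.29 in replicates 1 to 4, so its sign depended on the array. The fatty acid median was 1.10, 1.52, 2.65 and 0.13, above 0 on each array but close to it in replicate 4. Mean ratios were positive for 11 and negative for 8 sterol members, and positive for 9 and negative for 2 fatty acid members. The difference between the branches was not tested.

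Among the regulators, Scap and Srebf2 had the widest spread of all tested members. Srebf2, the SREBP that acts mainly on sterol genes, had ratios of 0.78, 5.46, 0.15 and -4.35 in replicates 1 to 4. Its p75High signal stood far above p75Low in replicate 2 and far below it in replicate 4, with a mean of 0.51 ± 4.01 (SD, n = 4; adjusted p = 0.905). Scap, the SREBP escort, read 4.75, -0.13, 3.68 and -4.64, with a mean of 0.92 ± 4.25 (SD, n = 4; adjusted p = 0.833). For both genes replicate 4 gave the lowest ratio, and the SD was larger than that of 97.1% of all genes for Srebf2 and 97.8% for Scap. Srebf1, the SREBP that acts mainly on fatty acid genes, read -0.92, -0.11, -1.83 and -0.27, below 0 on each array, with a mean of -0.78 ± 0.78 (SD, n = 4; adjusted p = 0.493). Channel levels of Srebf1 overlapped between the populations, at 6.46, 7.43, 6.98 and 7.20 in p75High and 7.38, 7.54, 8.81 and 7.47 in p75Low (log2 intensity). The other Srebf1 probes, with means of -0.07 and -0.09, were not well above background on any array and were not kept. The other Srebf2 probe was well above background on 1 array in each channel and was not kept.

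Insig1, which retains the SCAP-SREBP complex and is itself a target of it, had the largest negative mean of the list. Its p75High levels were 8.30, 7.51, 7.32 and 7.53 and its p75Low levels 11.36, 9.23, 10.26 and 7.11 (log2 intensity), so p75High was lower in replicates 1 to 3 and higher in replicate 4. The ratios were -3.06, -1.71, -2.94 and 0.42, with a mean of -1.82 ± 1.61 (SD, n = 4; 95% interval -3.66 to 0.01; adjusted p = 0.395). All 4 kept Insig1 probes had negative means, of -1.82, -1.97, -2.07 and -2.66. Those beside the tested probe were well above background on 3 arrays in p75Low and on 1 or 2 in p75High. They had thus entered through p75Low alone, so the filter could favour their negative sign. Their shared sign is therefore not independent of it. In replicate 4 the 4 probes read 0.42, -0.06, 0.02 and -0.42, which was the highest ratio of each. The probe with a mean of -1.97 was also near 0 in replicate 1, at -0.17. The tested probe lies at chr4:2578292-2578348 (rn4, minus strand), and the probes share their RNA and arrays.

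The first sterol enzymes turn acetyl-CoA into mevalonate and isoprenoid units. Hmgcs1, the cytosolic HMG-CoA synthase, read 1.62, 5.20, 5.20 and -0.05. It was brighter in p75High on 3 arrays and level on the fourth, with a mean of 2.99 ± 2.64 (SD, n = 4; 95% interval 0.12 to 5.86; adjusted p = 0.378). Its second kept probe had a mean of 0.88, with ratios of 5.67, -4.02, 1.80 and 0.06, and the probes took opposite signs in replicate 2. The second probe was well above background on 3 arrays in p75High and on 1 in p75Low. Pmvk, phosphomevalonate kinase, was the one member whose p75High levels all lay below its p75Low levels. These were 9.94, 10.10, 9.43 and 8.80 in p75High and 11.09, 10.29, 11.62 and 10.39 in p75Low (log2 intensity). The ratios were -1.15, -0.18, -2.19 and -1.58, a mean of -1.28 ± 0.85 (SD, n = 4; 95% interval -2.40 to -0.15; adjusted p = 0.354), or a 2.42-fold brighter p75Low signal. Among the rest of this stretch, means were 0.08 ± 0.29 for Acat2 (acetoacetyl-CoA thiolase), -0.66 ± 0.90 for Mvk (mevalonate kinase) and 0.32 ± 0.69 for Mvd, which makes isopentenyl diphosphate (SD, n = 4 each). They were 0.51 ± 2.03 for Idi1, the isomerase of that product, and 1.13 ± 1.95 for Fdps, which joins the units to farnesyl diphosphate (SD, n = 4 each). The other kept Fdps probes had means of 0.65 and -0.17.

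Squalene is formed, oxidised and closed into a ring by Fdft1, Sqle and Lss in turn. Fdft1, squalene synthase, had a mean of -0.04 ± 3.42 (SD, n = 4), with single ratios from -4.72 to 3.40. Sqle, squalene epoxidase and a rate-limiting enzyme of the branch, read 3.35, 5.35, 1.20 and 0.16, positive on each array. Its mean was 2.51 ± 2.31 (SD, n = 4; 95% interval -0.03 to 5.05; adjusted p = 0.396), and it was well above background on 3 arrays in p75High and on 1 in p75Low. Lss, the cyclase that makes lanosterol, was brighter in p75High on every array without overlap, at 11.36, 9.04, 8.61 and 8.81 against 7.75, 7.87, 7.82 and 7.76 in p75Low (log2 intensity). The p75Low levels were nearly level and the p75High level of replicate 1 stood apart. The ratios were 3.61, 1.16, 0.79 and 1.05, with a mean of 1.65 ± 1.32 (SD, n = 4; 95% interval 0.10 to 3.20; adjusted p = 0.372), or 3.15-fold.

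Later enzymes turn lanosterol into cholesterol. Sc5d, sterol C5-desaturase, read 0.39, 6.88, 0.21 and 1.33, all positive, but replicate 2 held most of its mean of 2.20 ± 3.15 (SD, n = 4; adjusted p = 0.527). Dhcr7, which makes the last reduction of one route to cholesterol, had a ratio on 2 arrays, 1.65 in replicate 1 and 1.90 in replicate 3 (mean 1.77 ± 0.18, SD, n = 2; adjusted p = 0.38), since its spots on the other two were outlier-marked and dropped. Cyp51, lanosterol demethylase, had a mean of -0.10 ± 1.45, Sc4mol, the C4-methylsterol oxidase, -1.27 ± 1.52, and Nsdhl, which acts with it, -0.58 ± 1.66 (SD, n = 4 each). Ebp, the sterol isomerase, had a mean of -1.03 ± 3.05 (SD, n = 4), which rested on a ratio of -5.54 in replicate 2. Without replicate 2 the Ebp mean was 0.47. So within 1 chain of enzymes, the same array could hold a strongly positive and a strongly negative member: replicate 2 gave 6.88 for Sc5d and -5.54 for Ebp.

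**Figure D2:**
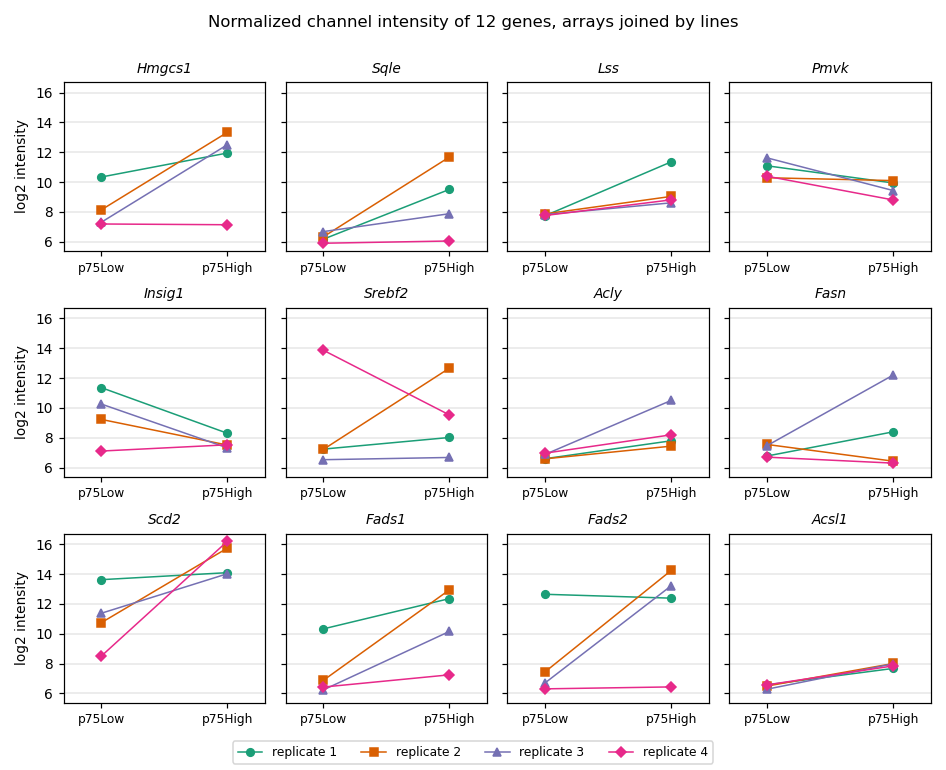
Log2 intensity after normalization (y axis) in p75Low and p75High (x axis) for selected members, with a line joining the populations of each of the 4 replicates. In Scd2 every p75High point (14.03 to 16.21) lies above every p75Low point (8.51 to 13.63), whereas the points of Insig1 overlap.

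In the fatty acid branch, Acly makes the acetyl-CoA that both branches use. Its levels were 7.80, 7.44, 10.51 and 8.20 in p75High and 6.60, 6.59, 6.89 and 6.97 in p75Low (log2 intensity), with no overlap. The ratios were 1.20, 0.85, 3.62 and 1.24, a mean of 1.73 ± 1.27 (SD, n = 4; 95% interval 0.22 to 3.24; adjusted p = 0.352), or 3.31-fold. Acaca, acetyl-CoA carboxylase, which commits carbon to fatty acids, read 0.12, -0.15, -2.12 and -1.15, near 0 in replicates 1 and 2. Its mean was -0.83 ± 1.02 (SD, n = 4; adjusted p = 0.528). Fasn, fatty acid synthase, read 1.62, -1.12, 4.72 and -0.40 on its brightest probe, a mean of 1.21 ± 2.62 (SD, n = 4; adjusted p = 0.653). The other Fasn probe read 1.60, 2.62, 1.57 and 3.36, positive on each array, with a mean of 2.29 ± 0.87 (SD, n = 4), so the probes of Fasn opposed each other in replicates 2 and 4. That other probe was well above background on 4 arrays in p75High and on 2 in p75Low, and had entered through p75High alone.

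Desaturases had the largest positive means of the list. Scd2, the stearoyl-CoA desaturase, was also its brightest member in p75High, at 14.10, 15.75, 14.03 and 16.21, against 13.63, 10.75, 11.38 and 8.51 in p75Low (log2 intensity). The populations did not overlap, but the ratios ran from nearly level to very large: 0.47, 4.99, 2.65 and 7.70. Their mean was 3.95 ± 3.10 (SD, n = 4; 95% interval 0.60 to 7.31; adjusted p = 0.345), or 15.5-fold. The other kept Scd2 probes read 3.19, 3.82, 3.57 and 0.40 (mean 2.74 ± 1.58) and 2.25, 5.68, 0.99 and -1.13 (mean 1.95 ± 2.85; SD, n = 4 each). All 3 probes thus had positive means, while replicate 4 was the highest array of the brightest probe and the lowest of the other two. Fads1, the delta-5 desaturase, read 2.02, 6.08, 3.92 and 0.82, with a mean of 3.21 ± 2.30 (SD, n = 4; 95% interval 0.68 to 5.74; adjusted p = 0.323), or 9.25-fold. Its levels overlapped, at 12.36, 12.95, 10.16 and 7.25 in p75High and 10.33, 6.88, 6.24 and 6.43 in p75Low (log2 intensity), and p75Low was well above background on 2 arrays. Fads2, the delta-6 desaturase, read -0.26, 6.80, 6.51 and 0.13 (mean 3.29 ± 3.89, SD, n = 4; adjusted p = 0.467): replicates 2 and 3 were strongly positive and replicates 1 and 4 near 0.

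Elongases and acyl-CoA synthetases lengthen fatty acids and activate them for use. Elovl5, the elongase of polyunsaturated fatty acids, had a mean of 0.69 ± 2.07 and Elovl6, the elongase of saturated ones, 1.50 ± 2.06 (SD, n = 4 each), with 0.04 on the other Elovl6 probe. Acsl4 had a mean of 1.09 ± 1.74 (SD, n = 4), and -0.47 on its other kept probe. Acsl1 had the smallest p of all members and a small spread. Its p75High levels were 7.68, 8.01, 7.99 and 7.85 and its p75Low levels 6.58, 6.50, 6.29 and 6.58 (log2 intensity), with no overlap. The signal was dim in both, and p75Low was well above background on 2 of the 4 arrays. The ratios were 1.10, 1.52, 1.69 and 1.27, a mean of 1.39 ± 0.26 (SD, n = 4; 95% interval 0.66 to 2.13; adjusted p = 0.192), or 2.63-fold. In a fit without the pairing (no replicate block), Acsl1 passed the threshold with a limma adjusted p of 0.0396. Its other kept probes had negative means, with ratios of -0.23, -2.25, -2.14 and -0.25 (mean -1.22) and of -0.31, 0.62, -1.05 and -1.16 (mean -0.47). The tested probe lies at chr16:49038105-49038164 (rn4, minus strand), 2388 bases into the transcript, and the others start at 3504 and 240. The tested probe had entered through p75High alone. The others were well above background on 1 and 2 arrays in p75High and on 3 and 4 in p75Low, and had entered through p75Low alone. The filter could thus favour the sign that each probe showed. The direction of Acsl1 differed between its probes, and the cause was not tested.

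**Figure D3:**
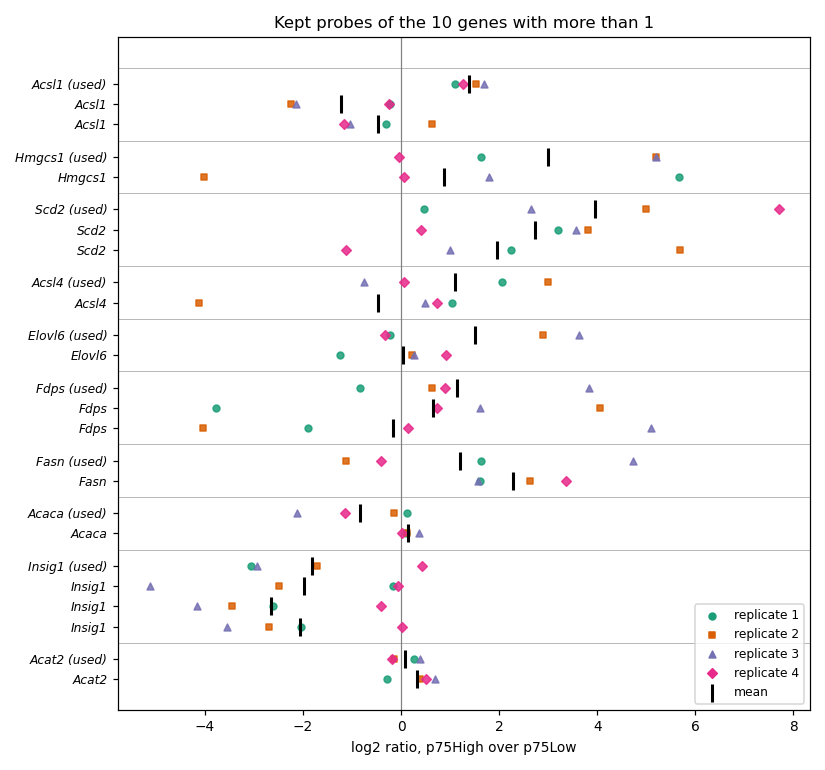
Mean log2 ratio of p75High over p75Low (x axis) of every kept probe of the 10 members with several kept probes (y axis), with the brightest probe set apart. The 4 Insig1 means lie within 0.84 of each other, and the 3 Acsl1 means span 2.61.

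Several probes gave a view of how far 1 probe can be trusted. The 10 members with more than 1 kept probe had 25 in all, and in 6 of them every probe had the sign of the brightest. Some of these probes had entered through 1 channel alone. Among them were the Acsl1 probes, the Insig1 probes beside the tested one, and the second probes of Fasn and Hmgcs1. The filter could favour the sign of such a probe, so these counts do not measure trust by themselves. In 7 of them (Acsl1, Acsl4, Elovl6, Fasn, Fdps, Hmgcs1 and Scd2) another probe lay more than 1 log2 unit away from the brightest. Acaca and Acat2, with the probes of Insig1, stayed within that margin. The Acaca probes still differed in sign: the brightest had a mean of -0.83, and the other read 0.09, 0.12, 0.37 and 0.02 (mean 0.15). Taking the median over probes gave Acsl1 a ratio of -0.22.

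Members of the same sign on all 4 arrays were 9 of the 29 that were read on each (31%, against 25.6% of all genes). Of these, 7 were positive (Sqle, Lss, Sc5d, Acly, Scd2, Fads1 and Acsl1; all genes 12.6%) and 2 negative (Pmvk and Srebf1; all genes 13%). Channel levels that did not overlap were found for 4 members with p75High above (Lss, Acly, Scd2 and Acsl1; 13.8%, against 4.47% of all genes) and for 1 below (Pmvk; 3.45%, against 4.07%). Sqle, Fads1 and Acsl1 had entered through p75High alone, so these counts do not stand for the list. Among the 23 members well above background in both channels and read on each array, 4 were positive throughout (17.4%, against 10.7% of such genes) and 2 negative (8.7%, against 13%). Levels did not overlap for 3 with p75High above (13%, against 3.86%) and for 1 below (4.35%, against 4.19%). These shares rest on few genes and were not tested.

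The median SD of a member over the arrays was 1.85, against 1.14 for all genes. The median brightness of the members was 8.65, against 7.99 for all genes (log2 intensity). Among genes with a mean brightness of 7.65 to 9.71 (log2 intensity), the median SD was 2.05 for 14 members and 1.67 for 9163 genes. In either channel, 14 of 30 members (46.7%) ranged over more than 4 log2 units between arrays, against 31.8% of all genes. Cyp51 was an example, at 11.02, 13.46, 10.04 and 6.19 in p75High and 11.66, 11.52, 11.50 and 6.42 in p75Low, both lowest in replicate 4.

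Fewer members were well above background in replicate 4 than on the other arrays. On it 22 of 30 members (73.3%) were well above background in each channel, against 84.7% of all genes in p75High and 85.3% in p75Low. On the other arrays 90% to 100% of the members were, against 91.6% to 95.2% of all genes in p75High and 86.1% to 91.5% in p75Low. Both channels lay under 7 (log2 intensity) for 8 members in replicate 4: Acat2, Fdft1, Sqle, Cyp51, Fasn, Elovl5, Elovl6 and Fads2. That was 27.6% of the members read there, near the 22.9% of all genes. In replicates 1 to 3 it held for 2, 1 and 1 members (6.67%, 3.45% and 3.33%), under the 22.4%, 21.8% and 21.1% of all genes. Ratios of more than 2 in either direction numbered 11, 11, 15 and 4 members in replicates 1 to 4, or 36.7%, 37.9%, 50% and 13.8%, against 24.6%, 25.7%, 24.4% and 20% of all genes. The part of this array's lower number of bright probes in the member results was not tested.

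**Figure D4:**
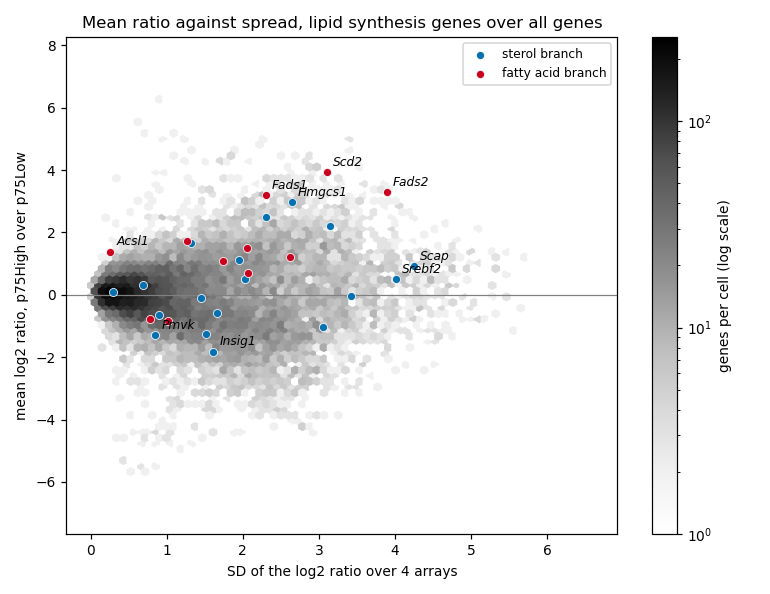
SD of the log2 ratio over the arrays (x axis) against its mean (y axis) for the 29 members read on all 4 arrays. All genes read on all 4 arrays are shown in grey. Acsl1 and Pmvk lie toward the left, with SDs of 0.26 and 0.85. Scap and Srebf2 lie far to the right, with means of 0.92 and 0.51.

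Other genes of the same pathways, from lists outside the 35 names, were counted in the same fit. Of 21 further sterol genes, 13 were tested and in limma 0 passed the adjusted threshold, with 1 higher and 2 lower at an unadjusted p under 0.05 and a median of -0.72. Nus1, a subunit of the enzyme that makes the dolichol chain, read 5.93, 2.08, 1.47 and 2.45 (mean 2.98 ± 2.01, SD, n = 4; adjusted p = 0.313). Gpr137b was counted here because the list held it, and its place in the sterol pathway was not examined. It had a mean of -1.41 ± 1.02 (SD, n = 4; adjusted p = 0.36). Of 28 further fatty acid genes, 20 were tested and in limma 0 passed, with 1 higher and 2 lower at an unadjusted p under 0.05 and a median of 0.27. Elovl1, the elongase of very long saturated chains, read -4.77, -1.21, -3.05 and -4.64, brighter in p75Low on each array (mean -3.41 ± 1.67, SD, n = 4; adjusted p = 0.209). Hsd17b12, the ketoreductase of the elongation cycle, read 3.70, 3.91, 0.81 and 3.37 (mean 2.95 ± 1.44, SD, n = 4; adjusted p = 0.22). These 2 enzymes of 1 cycle thus had means of opposite sign. Dgat2, which makes triglyceride, had a mean of -0.82 ± 0.36 (SD, n = 4; adjusted p = 0.375).

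Marker lists of cell types were read in the same samples. Of 14 myeloid markers 12 were tested and 7 were lower in p75High past the adjusted threshold, with a median ratio of -4.57. Their summed intensity was 11723 to 17065 in p75High and 219126 to 310277 in p75Low, and all 12 were well above background on every array in both channels. Ensheathing and Schwann glia markers, 14 of 14 tested, had 1 called, Ngfr, the gene of the sort itself. Of the other 13, 0 passed in limma (lowest adjusted p = 0.155; 4 higher and 0 lower at an unadjusted p under 0.05), with a median of 1.48 and sums of 31424 to 42378 in p75High and 4869 to 15426 in p75Low. Fibroblast markers, 7 of 10 tested, had 0 called in limma (3 higher and 2 lower at an unadjusted p under 0.05), a median of -0.89, and sums of 131233 to 146664 in p75High and 17656 to 34457 in p75Low. For the fibroblast list the sum was higher in p75High while the median ratio was negative. The part of these cell types in the ratios of the members was not tested.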

How the data were processed

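The members and gene lists were chosen with earlier results of these data known. The array design (Agilent rat 014879), the scanner software (Feature Extraction 10.5.1.1) and the build of the probe coordinates (rn4) are given per the file headers. The deposited intensity values are, per the file headers, mean spot and median background brightness without normalization. As an alternative served the log10 ratios (red over green) that the authors deposited, background-subtracted and dye-normalized per the file headers, and the authors' value table held the same log10 ratios (maximum difference 0). The direction comes from the labels: p75High was Cy5 on all 4 arrays, which lay on 1 slide and were scanned on 1 day.

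Intensities were background-corrected with limma's normexp method at an offset of 50, then loess-normalized per array at a span of 0.3, in limma 3.58.1 under R 4.3.3. Control spots had weight 0 in the loess fit, and 1112 outlier readings of 173516 (0.641%) had weight 0 and were left out. No spot was saturated (0). Repeat spots were averaged, giving 41012 probes, of which 24941 were kept. Ratios were tested against 0 with lmFit and eBayes, two-sided, with Benjamini-Hochberg adjustment over 22193 genes. Levels are log2 intensity of each channel after loess and Aquantile. The number of arrays limits the precision. Same-array channels deviated together weakly, with correlations of 0.1228, 0.0631, 0.06208 and 0.2584, against 0.04907 at most with another array. Since these channels also share an array, the correlations cannot show by themselves that the cell samples were paired. The labels give the samples as paired.

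Names were updated through RefSeq (GRCr8, names alone): accessions named 10835 probes, current symbols 5196 and older symbols 3478, while 21503 kept the file's name. Values on every array are given for members past the threshold (none), of 1 sign on all arrays, among the 6 smallest p, or listed as regulators or key enzymes. Of each other pathway list the 3 genes of smallest p were taken, and 1 of them is not reported here. The limma fit with its adjustment was tried on simulated ratios, which did not cover background correction, loess, the filter or the choice of probe. Alternatives covered background correction, normalization, filter, probe choice, pairing and each replicate left out. Counts over genes measured in both channels, and the glia list without Ngfr, were added after seeing the data.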

Additional observations from a re-analysis of the deposited data

Results flagged for a closer look

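In 3 of the 31 sets of 4 ratios examined, 1 array stood apart from the rest by more than Dixon's critical value, which chance gives in about 1 of 20 sets. Lss, the lanosterol cyclase, read 3.61 in replicate 1 and 0.79 to 1.16 on the others. Sc5d, the C5-desaturase, read 6.88 in replicate 2 and 0.21 to 1.33 on the others. Acly, ATP citrate lyase, read 3.62 in replicate 3 and 0.85 to 1.24 on the others. The arrays differed between these genes, and each gene stayed positive on all 4.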

How the results depend on the processing

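Of the 30 tested members, 22 kept the sign of their mean ratio in each of the 12 alternatives that tested them, 8 of which changed a processing choice and 4 of which left out a replicate. The count of genes past the threshold, 166, became 265 with the scanner's own ratios, 89 with no filter on dim probes and 0 to 0 with 1 replicate left out (1885 to 2374 genes at an unadjusted p under 0.05). Without the pairing (no replicate block) it was 316, with 153 higher and 163 lower, and the count of members past the threshold was 1 (Acsl1, limma adjusted p = 0.0396). No other member's call changed with the block. The sterol median of 0.32 became 0.88 with the scanner's ratios and 0.08 with no filter on dim probes, and the fatty acid median of 1.39 became 0.77 as a median over probes. With 1 replicate left out, the sterol median ran from 0.11 to 0.27 and the fatty acid median from 1.10 to 1.74. Members at an unadjusted p under 0.05 numbered 2 to 7 with 1 replicate left out.

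Means changed sign for 8 members. Fdft1 was 0.17 with no background correction, 0.88 with the scanner's ratios, 0.09 with median centring, and -1.19 to 1.52 with 1 replicate left out. Cyp51 was 0.06 with median centring and -0.78 to 0.36 with 1 replicate left out. With 1 replicate left out, Acat2 ran from -0.02 to 0.17, Ebp from -1.79 to 0.47, Nsdhl from -1.22 to 0.12, Srebf2 from -1.14 to 2.13 and Scap from -0.36 to 2.77. Acsl1 was -0.22 (adjusted p = 0.81) as a median over its probes. Median centring moved the median of all genes to 0.13. The causes were not tested. Dim members such as Acat2, Idi1 and Elovl6 lie near the background in at least 1 channel, which limits how far a ratio can be read.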
